A study of Mus musculus with 15 samples.

Results

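The sites at which SAM68 was crosslinked to RNA in day 10 mouse embryoid bodies were compared, gene by gene, with the sites of day 3 embryoid bodies. For each Ensembl gene the sites of each list were counted and divided by the length of that list, because the day 10 list is longer, with 74287 sites in 6345 genes against 28266 sites in 5034 genes. Genes were described when both lists together held at least 5 of their sites, which left 3680 of the 7299 genes with a site in either list, while 7949 genes had a site on any day of the series. They hold 90.8% of the day 3 list and 93.8% of the day 10 list, and the 3619 genes with 1 to 4 sites are in no class and are named only where they are defining markers of a list.

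Both days start from E14 mouse embryonic stem cells, a mouse line kept without feeder cells, and both used the same antibody against endogenous SAM68. Day 3 embryoid bodies had formed in hanging drops in medium with 10% serum. Day 10 embryoid bodies had instead been plated straight into spheroid microplates, so day and culture format differ together and cannot be told apart. On both days the bodies were dissociated into single cells and then irradiated with ultraviolet light of 254 nm. The labels give 5 libraries per day, but each day has a single list of sites, so no spread between libraries can be given and no test between days was made. The intervals below cover counting error only and take the sites of a gene as independent, which neighbouring sites are not.

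SAM68, the product of Khdrbs1, is a nuclear RNA-binding protein of the STAR family that recognises short U- and A-rich motifs, mostly in pre-mRNA, and is known as a regulator of alternative splicing and of 3′ end processing. Embryoid bodies are aggregates in which stem cells leave pluripotency, pass through a state like the postimplantation epiblast and give rise to derivatives of the germ layers, beating heart muscle among them. A crosslink site needs both the transcript and the protein on it. A gene without sites is therefore not shown to be unbound, and in a mixed culture fewer cells of a type and less RNA per cell cannot be told apart. RNA abundance was not analysed here.

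A gene was called gained when its share of the day 10 list was at least 2 times its share of the day 3 list, or when it had no day 3 site, and the exact 95% interval of the ratio lay above 1. It was called lost under the mirror rule, and kept when it had sites in both lists and a ratio between 0.5 and 2. By this rule 396 genes were gained, 10.8% of those described, 494 were lost (13.4%), 1697 were kept (46.1%) and 1093 were undecided. Of the gained genes 189 had no day 3 site, and of the lost genes 82 had no day 10 site. The depth of the lists limits the 2 directions unequally: a gene absent from day 3 needs 12 sites to be called gained, whereas a gene absent from day 10 is called lost from the minimum of 5 sites on. Among the 2042 genes with at least 12 sites, 396 were gained (19.4%) and 295 lost (14.4%). The balance also depends on the scaling. When the lists were scaled by the median ratio of the genes with at least 10 sites in both, 1.88 in place of 2.63, the calls became 627 gained and 320 lost, a shift of 0.48 on the log2 scale for every gene.

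Gained genes held 3.86% of the day 3 list and 29.4% of the day 10 list. Lost genes went the other way, from 28.1% to 5.90%, and the kept genes held 49.0% and 46.4%. Of the kept genes, 86 had an interval that lay wholly within 2-fold. Near the limits, Wdr26 with 11 and 58 sites (ratio 2.01) was just inside the gained class and Zbtb20 with 28 and 146 sites (1.98) just outside it. Setbp1 with 51 and 66 sites (0.492) was just inside the lost class, and Zfp91 with 18 and 24 sites (0.507) just outside. Yes1 and Dlc1, each with 4 and 30 sites, had intervals that began at 1.01, while Ankrd12 and Klhl26, each with 2 and 21 sites, had intervals that began at 0.977 and were undecided.

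Sequence could be read only where a site lay in a RefSeq window from 250 bases before to 50 after an annotated start (build GRCm38.p6), which covered 101 day 3 sites and 133 day 10 sites. The following stretches of 25 bases, centred on a site and written 5′ to 3′ on the gene's strand, are shown because they place gained, lost and kept sites side by side. TAAA, the DNA letters of the UAAA core that SAM68 is known to bind, is in capitals. The examples were picked after all stretches had been read, with and without TAAA in the gained and the lost class. The gained examples are Meis2 (chr2:116064784-116064808, minus strand), Bmpr1a (chr14:34502589-34502613, minus strand) and the long non-coding RNA 9030622O22Rik (chr2:148032061-148032085, minus strand). The lost examples are Platr22 (chr1:136696231-136696255, plus strand) and Map7 (chr10:20208327-20208351, plus strand), where the day 10 list also had a site at the same place. The kept examples are Homer1 (chr13:93307880-93307904, plus strand), Ddx17 (chr15:79532944-79532968, minus strand) and Rps26 (chr10:128626485-128626509, minus strand), at each of which the same position was called on both days.
Meis2, day 10: gcaaagggtaggttTAAAtctccaa
Bmpr1a, day 10: gaggaggaggagggcggagggagga
9030622O22Rik, day 10: tatatatatatatatgaatgatgag
Platr22, day 3: ccgtttcctctttgtttagttagcg
Map7, day 3: tcctattcagtttTAAAgggtgatt
Homer1, day 3 and day 10: gtgtgTAAAaagtgtaccaggcccc
Ddx17, day 3 and day 10: aacagagaatgttttttaattattt
Rps26, day 3 and day 10: gccggatcctctttcgagtcttggc

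In the stretches that could be read, TAAA occurred at 5.94% of the day 3 sites (exact 95% interval 2.21% to 12.5%) and at 11.3% of the day 10 sites (6.45% to 17.9%). All stretches of that length in all windows held it in 7.95% of cases, so neither interval lay away from the background. The search used the gene's strand only, and its reverse complement TTTA was found at 11.9% and 15.0% of the sites against 7.62% of all stretches. The day 3 interval of TTTA, 6.29% to 19.8%, included that background, and the day 10 interval, 9.43% to 22.3%, lay above it. TTTT, which can overlap TTTA, was found at 22.8% and 28.6% against 8.25%. In windows of genes that hold a site the background was higher, 9.45% for TAAA, 8.36% for TTTA and 10.4% for TTTT. These windows lie around annotated starts, hold 0.357% and 0.179% of the lists, and cannot stand for the other sites. Some starts lie within the gene, as for Ddx17, whose day 3 sites all lay beyond 62.2% of its span. Others belong to another gene: Map7 was read in the window of Rpl32l. For 196 of the readable sites the window was that of the gene itself. Of the 15 readable day 10 sites of gained genes 5 held TAAA, and of the 21 readable day 3 sites of lost genes 2 did. No day 3 site of a gained gene could be read.

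Many readable sites belong to ribosomal protein genes, which begin with a C- and T-rich tract at the start of transcription. This group was chosen after its values were seen, and was taken by symbol: Rpl, Rps or Rplp followed by a number. That rule left out Rpsa, which was lost, Fau, which was kept, and genes without a symbol, and it took in Rps27l. The group gave 46 of the 101 day 3 sites, in 31 genes, and 49 of the 133 day 10 sites, in 33 genes. In these stretches the median share of C and T was 76% on both days, against 49.6% over all windows, and none held TAAA. At 84.8% of the day 3 sites and 75.5% of the day 10 sites the other list had a site at the same place, as Rps26 shows. Over their whole length 67 genes of this group had at least 5 sites, of which none was gained, 7 were lost, 31 were kept and 29 were undecided. Over all genes described 10.8% were gained, 13.4% lost and 46.1% kept. The 73 genes of the group with a site held 346 day 3 and 405 day 10 sites in all. A gene absent from day 3 needs 12 sites to be called gained. The count of 0 gained is a count of calls under the interval rule and not a test.

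Gained genes were long. Their median RefSeq span was 133.7 kb, against 70.3 kb for lost, 50.7 kb for kept and 57.0 kb for all genes described. Spans over 100 kb made up 61.6% of the gained, 40.8% of the lost and 22.5% of the kept genes. Only 1.60% of genes under 10 kb were gained, and the share went up through 3.80%, 9.97% and 21.4% to 33.5% of genes over 300 kb. Lost genes also took a larger share of the longest genes, 22.7% over 300 kb against 8.80% under 10 kb. A gene with more sites is called more easily in either direction. Among genes with 20 to 50 sites the median span was 130.0 kb for the 157 gained genes, 78.8 kb for the 132 lost and 62.7 kb for the 451 kept.

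**Figure D1:**
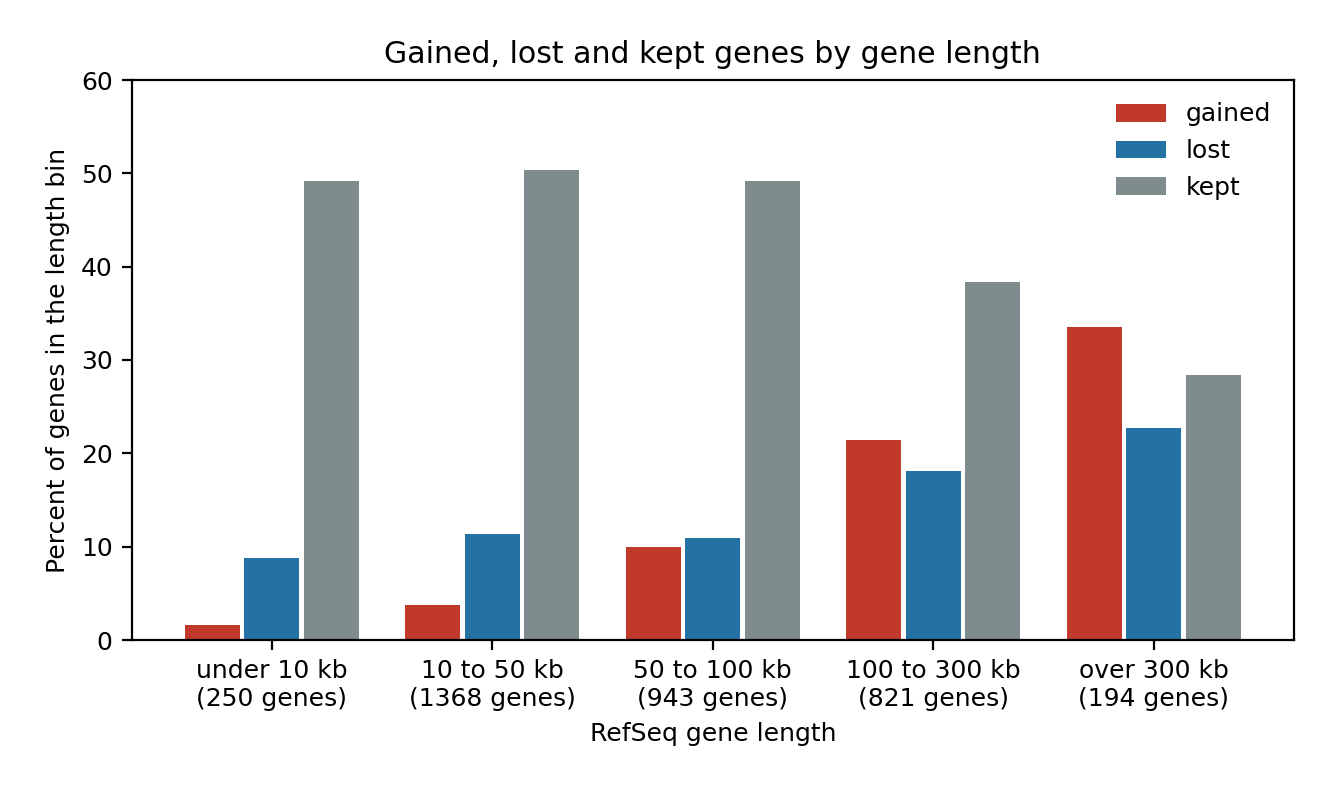
Percent of genes called gained, lost or kept (y axis) in 5 bins of RefSeq gene length (x axis, number of genes in each bin below it). Gained genes go from 1.60% of the shortest bin to 33.5% of the longest, lost genes from 8.80% to 22.7%, and kept genes from 49.2% down to 28.3%.

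The gained genes with the highest lower limits of the ratio were all absent from the day 3 list and also from the day 0 list of undifferentiated cells. Slc8a1, the sodium-calcium exchanger of the heart muscle membrane, led with 439 day 10 sites, 59.1 of every 10000 in the list, and a ratio of at least 45.1 by its interval. Its sites lay between positions 81393332 and 81647891 of chromosome 17, within a RefSeq span of 81373105 to 81738387 on the minus strand. Rbms3, a single-stranded nucleic acid-binding protein, followed with 310 sites, and Arhgap6, a GTPase-activating protein, with 298. Next came Unc5c, a netrin receptor, with 291 sites and Pcdh7, a protocadherin of the cell surface, with 267. Tmem108, a transmembrane protein, had 230 sites and Nfia, a transcription factor of the nuclear factor I family, 212. Nrp1, the coreceptor for semaphorins and vascular endothelial growth factor, had 190 sites within 142.8 kb, and Robo2, a receptor for Slit ligands, had 149 over 501.5 kb. Tanc2, a scaffold protein, had 145 sites. Zfpm2, the cofactor of Gata4 in heart development, had 144, and Alcam, an adhesion molecule of the immunoglobulin family, had 142. In all, 40 gained genes had at least 100 day 10 sites.

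Absence on day 3 did not always mean absence before. Of the 189 gained genes without a day 3 site, 128 also had no day 0 site, while 61 had at least 1 and 11 had at least 10. Epha4, an ephrin receptor, had 29 sites on day 0, none on day 3 and 15 on day 10. Arid5b, a DNA-binding chromatin protein, had 22, 0 and 74 sites, and Plagl1, an imprinted zinc finger gene, had 20, 0 and 73. Zeb1, a repressor of epithelial genes, had 17, 0 and 78. These genes had sites in stem cells, were missing from the day 3 list and were present again on day 10. No day 0 site was found in 44.2% of gained, 13.6% of lost, 11.6% of kept, 31.9% of undecided and 21.4% of all genes described. Lost and kept genes have a day 3 site by rule while 189 gained genes had none. Part of this contrast therefore follows from how the classes were made.

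The lost genes with the smallest upper limits of the ratio include known marks of early pluripotent cells. Adam23, a cell surface protein without protease activity, went from 62 day 3 sites, spread over 148.7 kb of chromosome 1, to none, and its ratio was below 0.0233 by the interval. It had no day 0 site either, so its sites were found on day 3 alone. Platr22, a non-coding RNA of pluripotent cells, went from 39 sites to 0, Rims2, a synaptic scaffold, from 35 to 0, and Fut9, the enzyme that makes the Lewis X antigen of stem cells, from 33 to 0. Kcnq3, a potassium channel subunit, went from 31 to 0 and Rnf17, a Tudor domain protein of germ cells, from 25 to 0. The gene ENSMUSG00000047146, not named by the tables used, went from 24 to 0. Cecr2, a chromatin remodelling protein, had 22 and 0 sites, and Frmd5, a FERM domain protein, had 49 and 3. Dnmt3b, the de novo DNA methyltransferase of the epiblast, and Grik3, a glutamate receptor subunit, each had 20 and 0. Fgf5, the growth factor gene that marks the postimplantation epiblast, had 19 and 0. Of these 12 genes Adam23, Kcnq3, Dnmt3b and Fgf5 had no day 0 site, whereas Rims2, Fut9, Rnf17, Grik3 and ENSMUSG00000047146 already had 35 to 66. Over the whole class 67 lost genes had no day 0 site.

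The pluripotency genes were divided into a naive and core list and a primed epiblast list. The naive and core list had 14 genes with at least 5 sites: 1 was gained, 7 lost, 3 kept and 3 undecided. Over all genes 10.8% were gained and 13.4% lost. The list's median log2 ratio was -1.10 against -0.03 over all genes described. This log2 ratio uses 1 added site, scaled to the list length. Together the list's sites went from 60.1 to 18.98 of every 10000. Jarid2, a subunit of Polycomb repressive complex 2, had 60 and 51 sites (ratio 0.323). Trim71, a ubiquitin ligase that represses mRNAs, had 30 and 18, and Rif1, a regulator of replication timing, had 27 and 6. Lifr, the receptor for leukaemia inhibitory factor, had 2 and 19 sites and was undecided, and Stat3, the transcription factor downstream of it, had 0 and 12 and was the gained gene. The central factors had few sites on either day: Pou5f1 had 2 and 0, Nanog 3 and 0, Esrrb 1 and 0, and Sox2 and Klf4 had none.

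In the primed epiblast list 6 of 10 genes were lost, 2 gained and 2 undecided, against 13.4% lost and 10.8% gained over all genes. The median log2 ratio was -2.85, and -0.45 over the 4 with sites on both days. Fgf5 and Dnmt3b are described above. Etv5, a transcription factor induced by FGF signalling, had 35 and 4 sites (0.0435). Cdh1, the epithelial cadherin, had 25 and 14 sites (0.213, interval 0.102 to 0.426). Cdh2, the neural cadherin, had no day 3 site and 69 day 10 sites, and Epha4 with 0 and 15 was the other gained gene. Otx2, a homeobox gene of the anterior epiblast, had 6 and 0 sites. Sites of both cadherins were thus found on day 10, those of Cdh1 at a lower share than on day 3. Genes of the primitive streak, which forms between these stages, were nearly absent: 20 of the 26 listed had no site, T, Eomes and Mesp1 among them, and the 2 with at least 5 sites were Pdgfra (0 and 17, gained) and Lef1 (4 and 1, lost). The germ cell and trophoblast list had Rnf17 alone at 5 sites.

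Transcription factors of the heart and mesoderm held the largest share of gained genes of any list with at least 10 genes. The lists were chosen with earlier results of these data known, so this order is a description and not a test. Of 19 genes 12 were gained, none was lost, 2 were kept and 5 were undecided, against 10.8% gained and 13.4% lost over all genes. The median log2 ratio was 3.23, and 1.76 over the 7 with a site on both days. The other 12 had no day 3 site and reached 5 sites through day 10 alone. Tead1, the DNA-binding partner of Yap, had 21 and 190 sites (ratio 3.44, interval 2.19 to 5.69). Meis2, a homeobox transcription factor, had 1 and 186. Zfpm2 had 0 and 144, and Prdm6, a repressor of smooth muscle genes, had 0 and 136. Gata4, a central cardiac and endodermal factor, had 4 and 111 sites (10.6, interval 4.01 to 39.4). Further gained genes were Meis1 with 0 and 75, Mef2a with 6 and 63, Tbx20 with 0 and 46, Gata6 with 0 and 33, Mef2c with 0 and 32 and Myocd with 0 and 20 sites, all regulators of cardiac or smooth muscle genes. Of the defining cardiac factors Nkx2-5 had no site on either day, Tbx5 had 0 and 2, and Hand1 and Isl1 each had 0 and 1.

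Of 17 sarcomere and Z-disc genes 6 were gained, none was lost, 4 were kept and 7 were undecided (median log2 ratio 2.36, and 0.69 over the 10 with sites on both days). The shares over all genes were 10.8% gained and 13.4% lost. Palld, an actin-bundling scaffold, had 0 and 62 sites, and Myh10, a non-muscle myosin heavy chain, had 3 and 55. Tpm1, which encodes muscle and non-muscle tropomyosins, had 10 and 53 sites (2.02, interval 1.01 to 4.45). Pdlim5, a Z-disc protein, had 2 and 46, and Actn1, a non-muscle actinin, had 4 and 42. Ttn, the giant spring of the sarcomere, had 0 and 35. Utrn, the paralogue of dystrophin, had 48 and 105 sites and was kept (0.832). Several gained members are thus actin-binding genes that are not restricted to muscle. The contractile genes that define cardiomyocytes had few sites: Myh6 had 0 and 6, Tnnt2 0 and 3, Actc1 0 and 2, Actn2 and Tnni1 0 and 1, and Myh7, Myl2, Myl7 and Tnni3 none.

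In the list of calcium handling genes and ion channels 6 of 15 were gained, 3 lost, 3 kept and 3 undecided. The shares over all genes were 10.8% gained, 13.4% lost and 46.1% kept. Of the 15 genes 7 had no day 3 site and 2 had no day 10 site. Slc8a1 made up much of it: the list had 95 sites on day 3 and 739 on day 10, of which 300 remained without Slc8a1. Ryr2, the calcium release channel of cardiac sarcoplasmic reticulum, had 0 and 87 sites. Camk2d, the cardiac isoform of calmodulin-dependent kinase, had 3 and 37 (4.69, interval 1.49 to 23.8), and Cacnb2, a subunit of L-type calcium channels, had 0 and 30. Cacna1c and Cacna1d, the pore subunits of such channels, had 0 and 18 and 0 and 15. Lost genes were Kcnq3, Kcnj3, a potassium channel with 16 and 0 sites, and Itpr1, an intracellular calcium channel with 16 and 7. Trpm7, a channel fused to a kinase, had 15 and 44 sites and was kept. The list's median log2 ratio of 2.04 dropped to 0.15 over the 6 genes with a site on both days.

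Extracellular matrix and mesenchyme genes held 59.8 of every 10000 sites on day 3 and 291.2 on day 10. Of 27 genes 15 were gained, 1 was lost, 3 were kept and 8 were undecided (median log2 ratio 2.36, and 1.99 over the 18 with sites on both days). The shares over all genes were 10.8% gained and 13.4% lost. Gpc6, a glypican that carries heparan sulphate, had 39 and 919 sites, a ratio of 8.97 (interval 6.51 to 12.7). Gpc3, another glypican, had 25 and 459 (6.99, interval 4.67 to 10.9). Of the basement membrane genes Col4a1 had 2 and 87 sites, Col4a2 1 and 76, Lama1 1 and 62, Lamc1 4 and 56 and Lamb1 3 and 45. Adamts9, a matrix protease, had 2 and 83, Vcan, the proteoglycan versican, 2 and 63, and Ptn, a heparin-binding growth factor, 0 and 77. Fn1, fibronectin, had 3 and 29 sites, Sparc 3 and 26, Fbn2, a fibrillin, 0 and 25, and Postn, periostin, 0 and 22. Sulf1, a sulphatase that trims heparan sulphate, went the other way with 60 and 6 sites (0.0380, interval 0.0134 to 0.0878) and was the lost gene. Without Gpc6 the list still had 1244 day 10 sites against 130 on day 3.

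**Figure D2:**
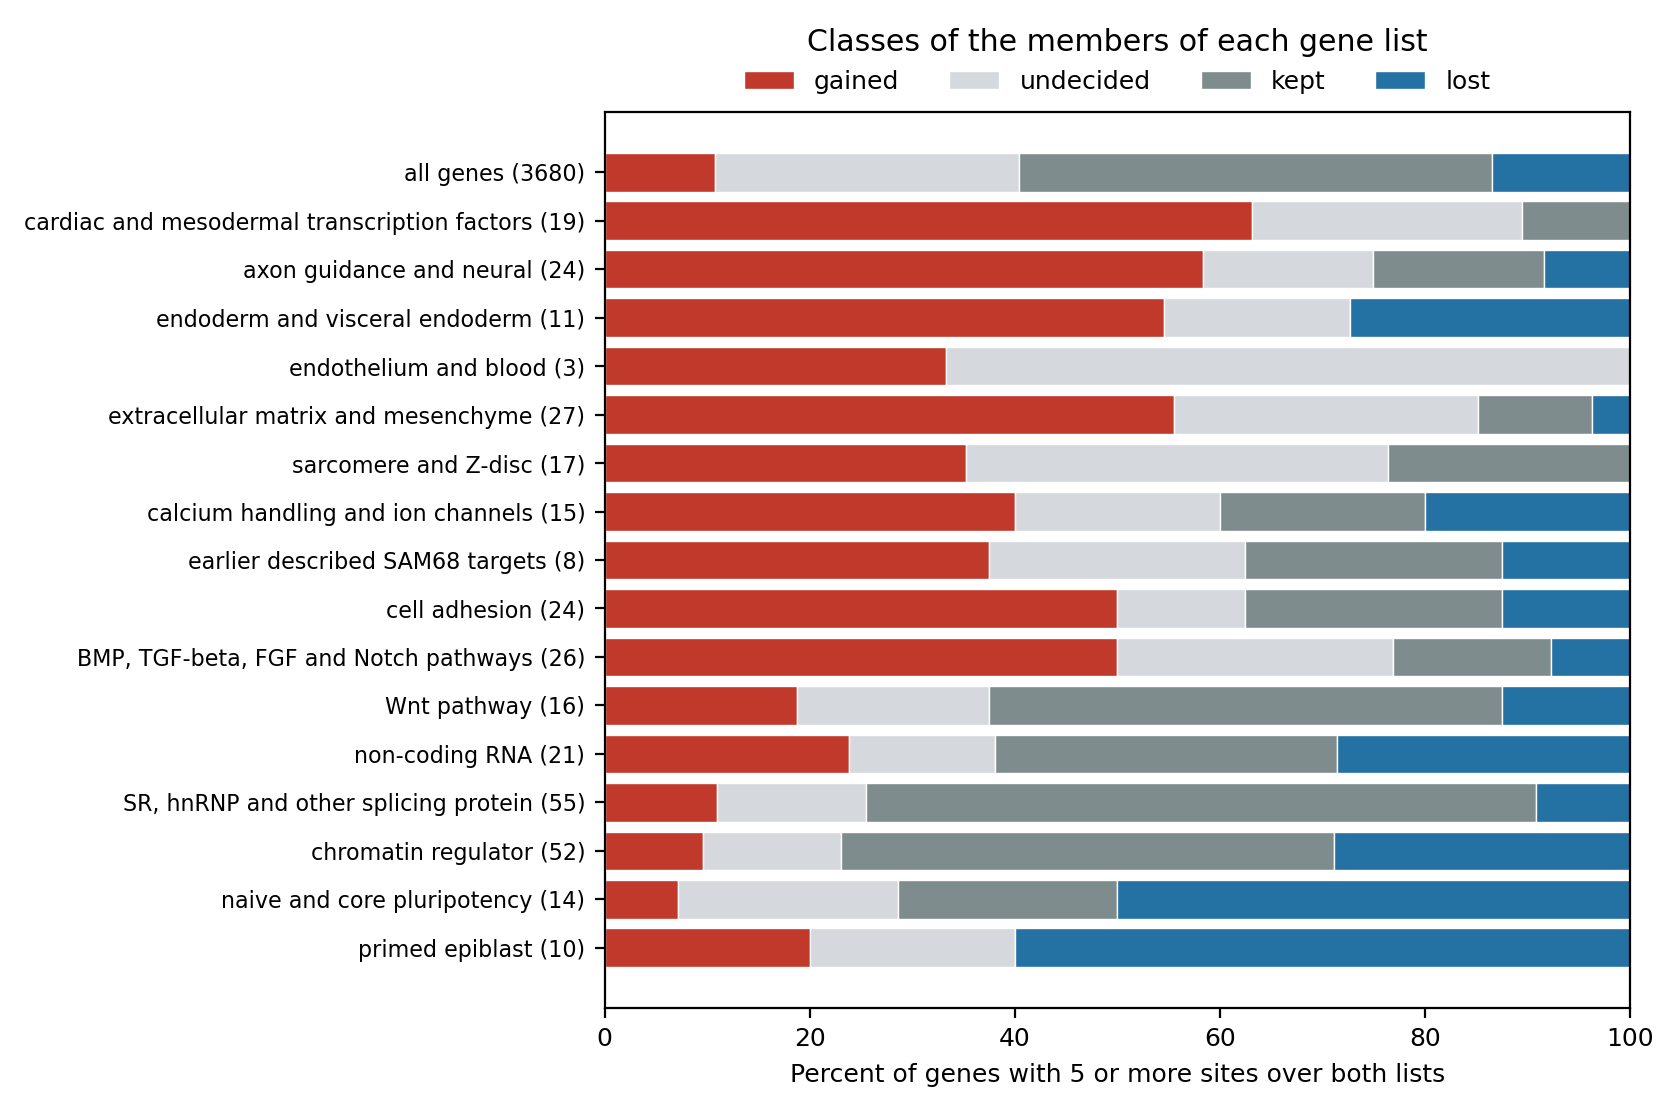
Percent of the genes of each list (y axis, number of genes with at least 5 sites in parentheses) that were gained, undecided, kept or lost, with all 3680 genes at the top and the lists below it in order of their median log2 ratio. Gained genes make up 12 of 19 cardiac and mesodermal transcription factors and 15 of 27 matrix genes, lost genes 7 of 14 naive and 6 of 10 primed pluripotency genes, and kept genes 36 of 55 splicing protein genes.

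The lists of other cell types held few genes, and their calls went both ways in endoderm. Of 11 endoderm and visceral endoderm genes 6 were gained, 3 lost and 2 undecided, and the list went from 17.3 to 61.4 sites of every 10000. Over all genes 10.8% were gained and 13.4% lost. The gained Gata4, Gata6, Lama1 and Col4a1 are shared with the lists above. Dab2, an endocytic adaptor of visceral endoderm, had 3 and 80 sites and Apob, an apolipoprotein, 0 and 29. Cubn and Lrp2, endocytic receptors of the same tissue, had 5 and 2 and 7 and 0 and were lost. Sox17 and Foxa2 had no site, Hnf4a had 0 and 1, Afp 0 and 2 and Ttr 0 and 4. Of the endothelial and blood genes Flt1, a receptor for vascular endothelial growth factor, had 0 and 29 sites, while Pecam1 and Kdr had none and 19 of the 26 listed had no site on either day. The part these cell types have in the gained genes was not tested.

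The axon guidance and neural list included 14 gained genes among 24, with 2 lost, 4 kept and 4 undecided. Over all genes 10.8% were gained and 13.4% lost. The list's median log2 ratio was 3.14, but it was -0.044 over the 11 genes with a site on both days. The shift thus rested on genes absent from day 3. Grip1, a scaffold for glutamate receptors, had 90 and 455 sites and was kept just below the 2-fold limit (1.92, interval 1.53 to 2.44). Besides Unc5c, Nrp1 and Robo2, the gained genes included Efna5, an ephrin ligand, with 7 and 211 sites (11.5, interval 5.47 to 28.9), and Slit2, a ligand of Robo receptors, with 0 and 49. Slit3, a related ligand, had 63 and 116 sites and Robo1 24 and 60, and both were kept. Ligand and receptor genes of the Slit family were thus split between the classes. Sema6a, a semaphorin, had 4 and 44 sites, Ank3, an ankyrin, 7 and 44, Dscam, an adhesion molecule, 0 and 39, and Plxna4, a semaphorin receptor, 0 and 37. Zeb1 had 0 and 78 sites, Zeb2, a related repressor, 0 and 37 and Ncam1, the neural cell adhesion molecule, 0 and 28. Plxdc2, a plexin domain protein, had 44 and 41 sites and was lost (0.355). Tubb3 and Map2, which mark neurons, had no site on either day.

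Cell adhesion genes were 12 gained, 3 lost, 6 kept and 3 undecided of 24 (median log2 ratio 1.71, and 0.31 over the 13 with sites on both days). The shares over all genes were 10.8% gained and 13.4% lost. Magi1, a junctional scaffold, had 97 and 306 sites and was kept, as was Pard3, a polarity protein, with 54 and 176. Cdh11, a mesenchymal cadherin, had 0 and 96 sites, Cdh6, a cadherin, 0 and 52, and Cdh3, the placental cadherin, 5 and 52. Magi3, a relative of Magi1, had 11 and 106 sites, Ctnna1, alpha-catenin, 15 and 86, Itgb1, the integrin beta subunit, 8 and 66, and Ctnna3, an alpha-catenin of heart and testis, 0 and 22. The lost genes were Adam23, Cdh1 and Cadm1, an epithelial adhesion molecule with 78 and 20 sites (0.0976, interval 0.0565 to 0.161).

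Of 26 genes of the BMP, TGF-beta, FGF and Notch pathways 13 were gained, 2 lost, 4 kept and 7 undecided (median log2 ratio 1.65, and 1.20 over the 18 with sites on both days). Over all genes 10.8% were gained and 13.4% lost. The ligand genes had few sites: Tgfb2 and Bmp5 each had 0 and 15. Among receptors Bmpr1a had 11 and 84 sites (2.91, interval 1.54 to 6.04), Bmpr2 7 and 60, and the coreceptor Tgfbr3 0 and 30. Erbb4, the neuregulin receptor, had 1 and 19. Downstream, Smad2 had 6 and 43 sites, Smad4 6 and 38, and the inhibitory Smad6 0 and 36. In the Notch pathway the coactivators Maml3 and Maml2 were gained, with 10 and 263 (10.0, interval 5.36 to 21.1) and 0 and 45 sites, and Numb, an inhibitor, had 9 and 78. Rbpj, the DNA-binding protein that these coactivators join, was lost, with 23 and 14 sites (0.232, interval 0.110 to 0.470).

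Wnt pathway genes stayed near the background, with 3 gained, 2 lost, 8 kept and 3 undecided of 16 and a median log2 ratio of 0.03. The shares over all genes were 10.8% gained, 13.4% lost and 46.1% kept, with a median of -0.03. Within the TCF family the values differed by member. Tcf7l1, the repressor that acts in pluripotent cells, had 70 and 101 sites (0.549, interval 0.401 to 0.756) and was kept, whereas Tcf7l2 had 3 and 93 (11.8, interval 3.91 to 58.2) and was gained. The receptor Ror1 had 10 and 92 sites and Gsk3b, a kinase of the destruction complex, 12 and 64 (2.03), both gained. Apc, a scaffold of that complex, had 20 and 48 sites and was kept. Tle4, a corepressor, had 27 and 15 and was lost.

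Of 55 genes of the splicing machinery and of other RNA-binding proteins 36 were kept, 6 gained, 5 lost and 8 undecided. Over all genes 46.1% were kept, 10.8% gained and 13.4% lost. The kept share was 53.3% among all genes with at least 20 sites, and 66.9% among those with at least 10 in both lists. Of the 55 genes 37 had at least 20 sites. The list's median log2 ratio was -0.38 against -0.03 over all genes. Scaling the lists by the median ratio of genes with many sites moves all genes alike, and under it the list's median was 0.08 against 0.42 over all genes. Khdrbs1, the gene of SAM68 itself, had 12 and 48 sites (1.52, interval 0.796 to 3.15). Rbpms, an RNA-binding protein of muscle and germ cells, had 149 and 201 sites (0.513, interval 0.413 to 0.639). Msi2, a musashi protein, had 91 and 160, Qk, another STAR protein, 28 and 125, and Luc7l2, a U1-associated factor, 49 and 112. All 6 gained genes of the list are given here. Rbms1 had 2 and 200 sites (38.0, interval 10.4 to 316.4) and its relative Rbms3 0 and 310. Mbnl2, a splicing regulator of muscle and brain, had 25 and 185 (2.82, interval 1.85 to 4.46), Celf2 0 and 46, Ptbp3 1 and 30, and Rbm20, the splicing regulator of Ttn in heart, 0 and 25. Among the lost were Rbpms2 with 25 and 3, Esrp1, the epithelial splicing regulator, with 19 and 8, Tra2a with 18 and 20 and Luc7l3 with 16 and 18.

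Chromatin regulators had 25 kept, 15 lost, 5 gained and 7 undecided genes of 52. Over all genes 46.1% were kept, 13.4% lost and 10.8% gained. The list's share went from 335 to 208.8 sites of every 10000. The median log2 ratio was -0.46 against -0.03 over all genes, and -0.01 against 0.42 under the scaling by the median ratio. Setd5 had 69 and 174 sites and Nipbl, the cohesin loader, 48 and 107, and both were kept. Chd9, a remodelling ATPase, had 92 and 17 sites (0.0703, interval 0.0393 to 0.119), the largest loss in sites within the list. Kdm4c, a histone demethylase, had 44 and 30, Arid2 37 and 32, Kat6b, an acetyltransferase, 40 and 23, Cdyl 26 and 21 and Ncor1, a corepressor, 30 and 32. Asxl1 had 24 and 25 sites, Smarcc1 18 and 15 and Ctcf, the insulator protein, 14 and 15. Several lost genes therefore kept a like number of sites in a list 2.63 times as long. Those gained were Arid5b, Kmt2e with 5 and 71, Arid1b with 8 and 49, Kmt2c with 4 and 35, and Phc3, named after its values were seen, with 0 and 12.

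Among RNAs outside the protein-coding class, the imprinted antisense transcript Airn had 2 and 267 sites (50.8, interval 13.9 to 421.6), most of any on day 10. Sites in overlapping genes had been removed before deposit, and whether strand was considered there is not given in the sources used here. Kcnq1ot1, another imprinted antisense RNA, had 62 and 158 sites and was kept (0.970, interval 0.719 to 1.32). Dleu2, the host transcript of a microRNA cluster, had 9 and 122, and 9030622O22Rik 0 and 80. Malat1 and Neat1, the nuclear RNAs of speckles and paraspeckles, had 9 and 65 and 7 and 50 sites (2.75 and 2.72). On day 3 Kcnq1ot1 and Platr22 led, followed by ENSMUSG00000097648 with 30 and 2, ENSMUSG00000085396 with 27 and 41 and ENSMUSG00000096958 with 26 and 16. Lncenc1, a non-coding RNA of naive stem cells, had 18 and 0. Of the 21 listed non-coding RNAs with at least 5 sites 5 were gained, 6 lost, 7 kept and 3 undecided. The shares over all genes were 10.8% gained, 13.4% lost and 46.1% kept.

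A list of genes described elsewhere as SAM68 targets had 8 members with at least 5 sites, of which 3 were gained, 1 lost, 2 kept and 2 undecided. Over all genes 10.8% were gained, 13.4% lost and 46.1% kept. Of the 24 genes listed, 8 had no site and 8 had 1 to 4. The list's median log2 ratio was 1.82, but -0.14 over the 16 genes with at least 1 site. Sgce, whose exon choice SAM68 is known to control, had 1 and 52 sites (19.8, interval 3.40 to 796.3). Bcl2l1, the apoptosis regulator with 2 known isoforms, had 2 and 22 (4.19, interval 1.03 to 36.7), and Map3k7, a kinase of TGF-beta signalling, had 9 and 23 and was kept. Sorbs2, a Z-disc adaptor, had 0 and 19.

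The kept genes with most sites were long and broadly used. Exoc4, a subunit of the exocyst, had 175 and 435 sites, 61.9 and 58.6 of every 10000, a ratio of 0.946 (interval 0.792 to 1.13). Its sites ran over 716.8 kb on day 3 and 710.0 kb on day 10, and the outermost site at the start of the gene lay at position 33256077 and 33256078 of chromosome 6 on the 2 days. Ext1, a heparan sulphate polymerase, had 88 and 219 sites (0.947) and Setd5 69 and 174 (0.960). Grip1 and Bbx, an HMG-box protein with 40 and 200 sites (1.90), were near the upper limit of the class and Rbpms near the lower.

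Even where a gene was kept, most sites were not found at the same place. A site was counted as at the same place when its 5 nt overlapped a site of the same gene in the other list by at least 1 nt. This held for 25.9% of day 3 sites and 9.91% of day 10 sites over all genes. In kept genes it held for 32.7% of day 3 sites (exact 95% interval 31.9% to 33.5%), and in lost genes for 13.5% (12.7% to 14.3%). In gained genes 46.0% of the 1091 day 3 sites had a day 10 site at their place (43.0% to 49.0%), and 85.3% had a day 10 site within 500 nt. Within 500 nt the share of day 3 sites was 72.8% in kept genes and 33.9% in lost genes. The day 10 list is longer and denser, with a median of 358 nt to the next site of the gene against 844 nt on day 3, and more sites in a gene make a match more likely, so these shares were not compared further. The share within a list was 11.9% and 4.53% when only identical positions were counted.

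Position was examined in the 617 genes with at least 10 sites in both lists, of which 31 were gained (5.02%), 147 lost (23.8%) and 413 kept (66.9%). The 603 of them with a RefSeq span were used, and each site was placed by its distance from the start as a percent of the span. The table holds spans only, so exons and introns were not told apart. The median over genes of the median site was 46.7% of the length on both days. The median shift was -0.17 points (SD 13.7 over genes), 414 genes shifted by at most 10 points, and of the 57 that shifted by over 25 points 25 moved towards the end and 32 towards the start. The first 10% of the gene held a mean of 10.0% of a gene's sites on day 3 and 9.87% on day 10, and the last 10% held 10.7% and 9.59%. The median position was thus alike on both days while single genes shifted both ways. The mean share in the last 10% was lower on day 10, by a difference of -1.07 points (SD 8.84 over 603 genes), and between -0.80 and -1.10 points in the 3 alternatives tried. Sites found on day 10 over 500 nt from any day 3 site had a median position of 45.3%, with 7.36% in the last 10% of the gene, against 45.6% and 10.0% for those at a day 3 site. The day 3 list also had a lower share there: 8.56% of sites over 500 nt from any day 10 site, against 10.05% of those at one. These shares pool sites over genes. The stretch covered by the sites moved with their number. It was wider on day 10 in 302 of 406 kept genes, with 8779 and 21392 sites, in 29 of 30 gained genes, with 456 and 4233, and in 48 of 142 lost genes, with 4260 and 3287.

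**Figure D3:**
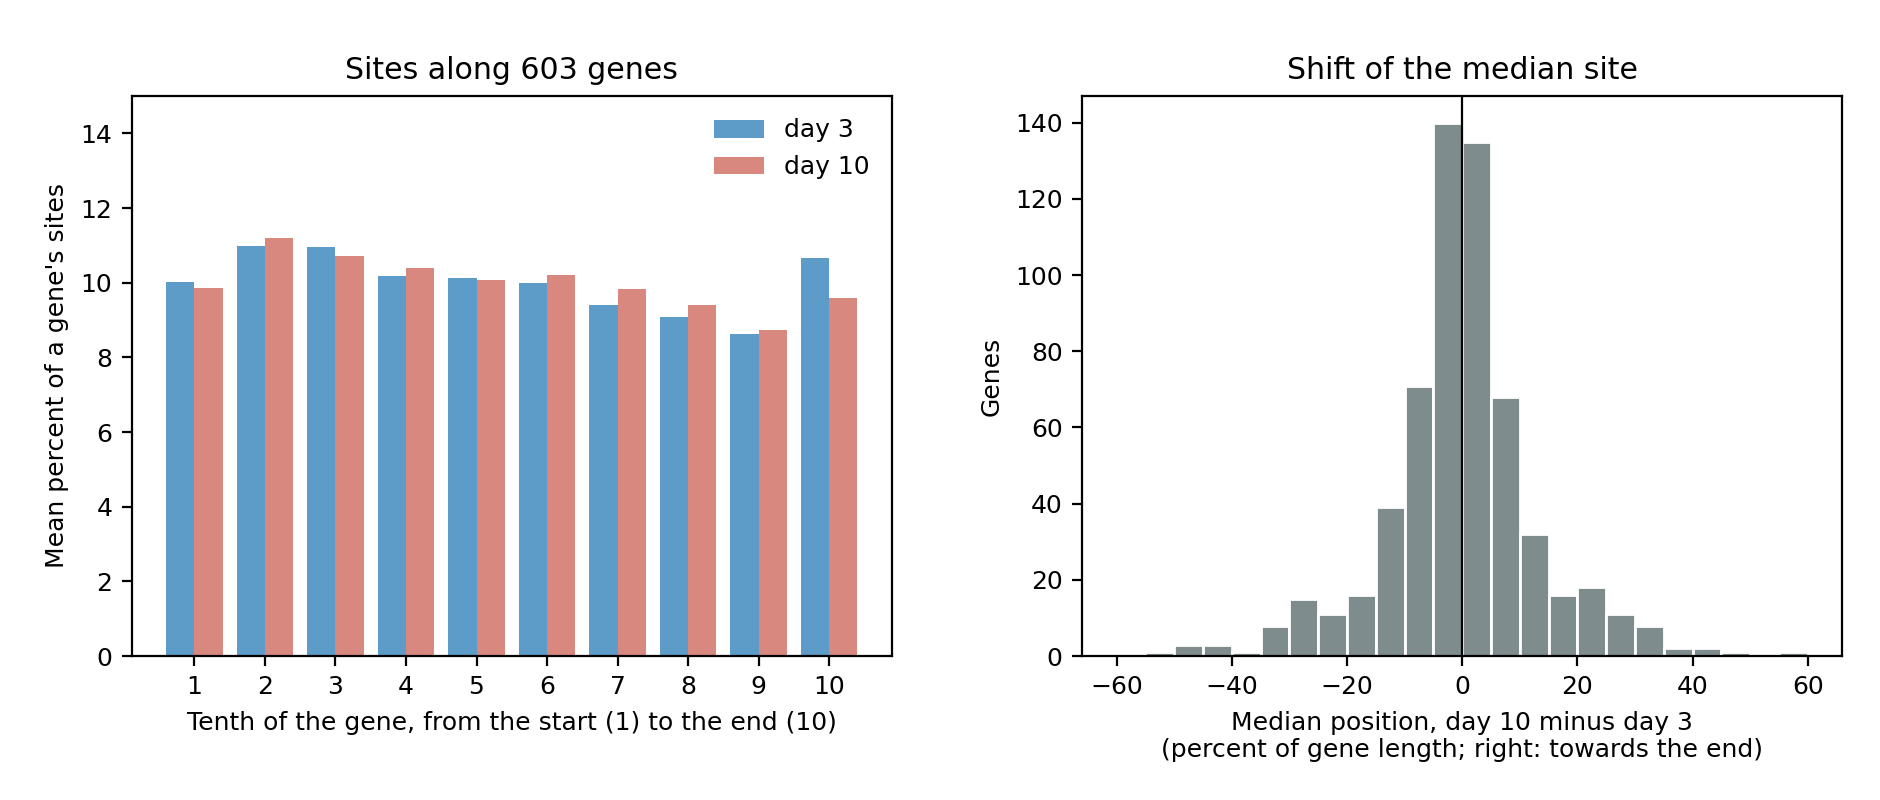
Left, mean percent of a gene's sites (y axis) in each 10% of gene length from start to end (x axis) on day 3 and day 10, over 603 genes with at least 10 sites in both lists. Right, number of genes (y axis) by shift of the median site, day 10 minus day 3, in percent of gene length (x axis). The bars of the 2 days lie close together along the gene, and 414 of 603 shifts lie within 10 points of 0.

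The genes with the largest differences were found by the gap between the cumulative curves of site position, which is 0 for the same curve and 1 for curves that do not overlap. Its median was 0.217, and 9 genes exceeded 0.5. Few sites alone can give a large gap, and the gap to be had from site number alone was not computed. Tenm4, a teneurin of the cell surface with a span of 739.9 kb, stood at 0.929. Of its 19 day 3 sites 15 lay in the first 25% of the gene and the last lay at 54.5%, whereas of its 14 day 10 sites 8 lay between 50% and 75% of the length and 5 further on. None of its sites was at the same place on both days. Its 44 day 0 sites lay in both regions, with 20 in the first 25% and 15 between 50% and 75%. Rbpj had 0.652: 12 of its 23 day 3 sites lay in the first 25%, and its 14 day 10 sites all lay beyond 39.7% of the length. In day 0 cells 25 of its 45 sites lay in the first 25%, as on day 3.

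Other genes had sites nearer to the start on day 10. In Rasal2, a GTPase-activating protein for Ras, the median moved from 52.3% to 10.4% of a span of 277.4 kb, and 16 of 23 day 10 sites lay in the first 25% against 9 of 50 on day 3. Lrch1, a leucine-rich repeat protein, moved from 54.6% to 20.5%, with 18 of 30 day 10 sites in the first 25% against 1 of 13. Fam169a had its median at 34.0% and 12.5%. In Mid1, a ubiquitin ligase, all 11 day 3 sites lay in the last 25% of the gene, and on day 10 7 of 30 lay in the first 25%, with medians of 97.5% and 94.1%. In Chd9, chosen after its values were seen because it lost most sites of the chromatin list, the 92 day 3 sites were spread over the gene, and 12 of the 17 day 10 sites lay in the last 25% with a middle range from 64.6% to 77.4%. With 10 to 30 sites on a day these positions rest on few sites, and sites that sit next to each other count separately.

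At the other end were genes whose sites kept their layout. The 6 with the smallest gaps had at least 33 sites on each day, so small gaps also went with many sites. Rbpms had a gap of 0.0459, with medians at 46.2% and 46.7%, and 85.9% of its day 3 sites lay within 500 nt of a day 10 site. Etl4, a scaffold gene with 180 and 161 sites, had 0.0589, and all sites on both days lay beyond 69.1% of its span of 900.3 kb. It was a lost gene by its share, so a lower share came with the same layout. Wnk1, a kinase of ion transport, Mbtd1, a chromatin reader, Ptprg, a receptor phosphatase, and Kansl1, a scaffold of an acetyltransferase complex, had gaps of 0.0653 to 0.0735. Exact reuse of places was highest in Ddx17, an RNA helicase that acts in splicing, where 82.4% of 17 day 3 sites had a day 10 site at their place. Mier1, a corepressor, had 76.5% of 17 and the non-coding RNA 6820431F20Rik 75% of 12. Tardbp, the RNA-binding protein TDP-43, Slf2, Gnas, Lcor and Myh9 each had 72.7% of 11. In 6 genes no day 3 site was at the place of a day 10 site: Tenm4, Cul1, Cdc42bpa, Map2k1, Shroom4 and Rxylt1. In Map2k1, a kinase of the Erk pathway, 70.0% of the day 3 sites still lay within 500 nt of a day 10 site, while in Tenm4 none did. Cdc42bpa, a kinase that acts with Cdc42, had its median at 34.3% and 67.6%, and at 68.9% for its 8 day 0 sites.

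**Figure D4:**
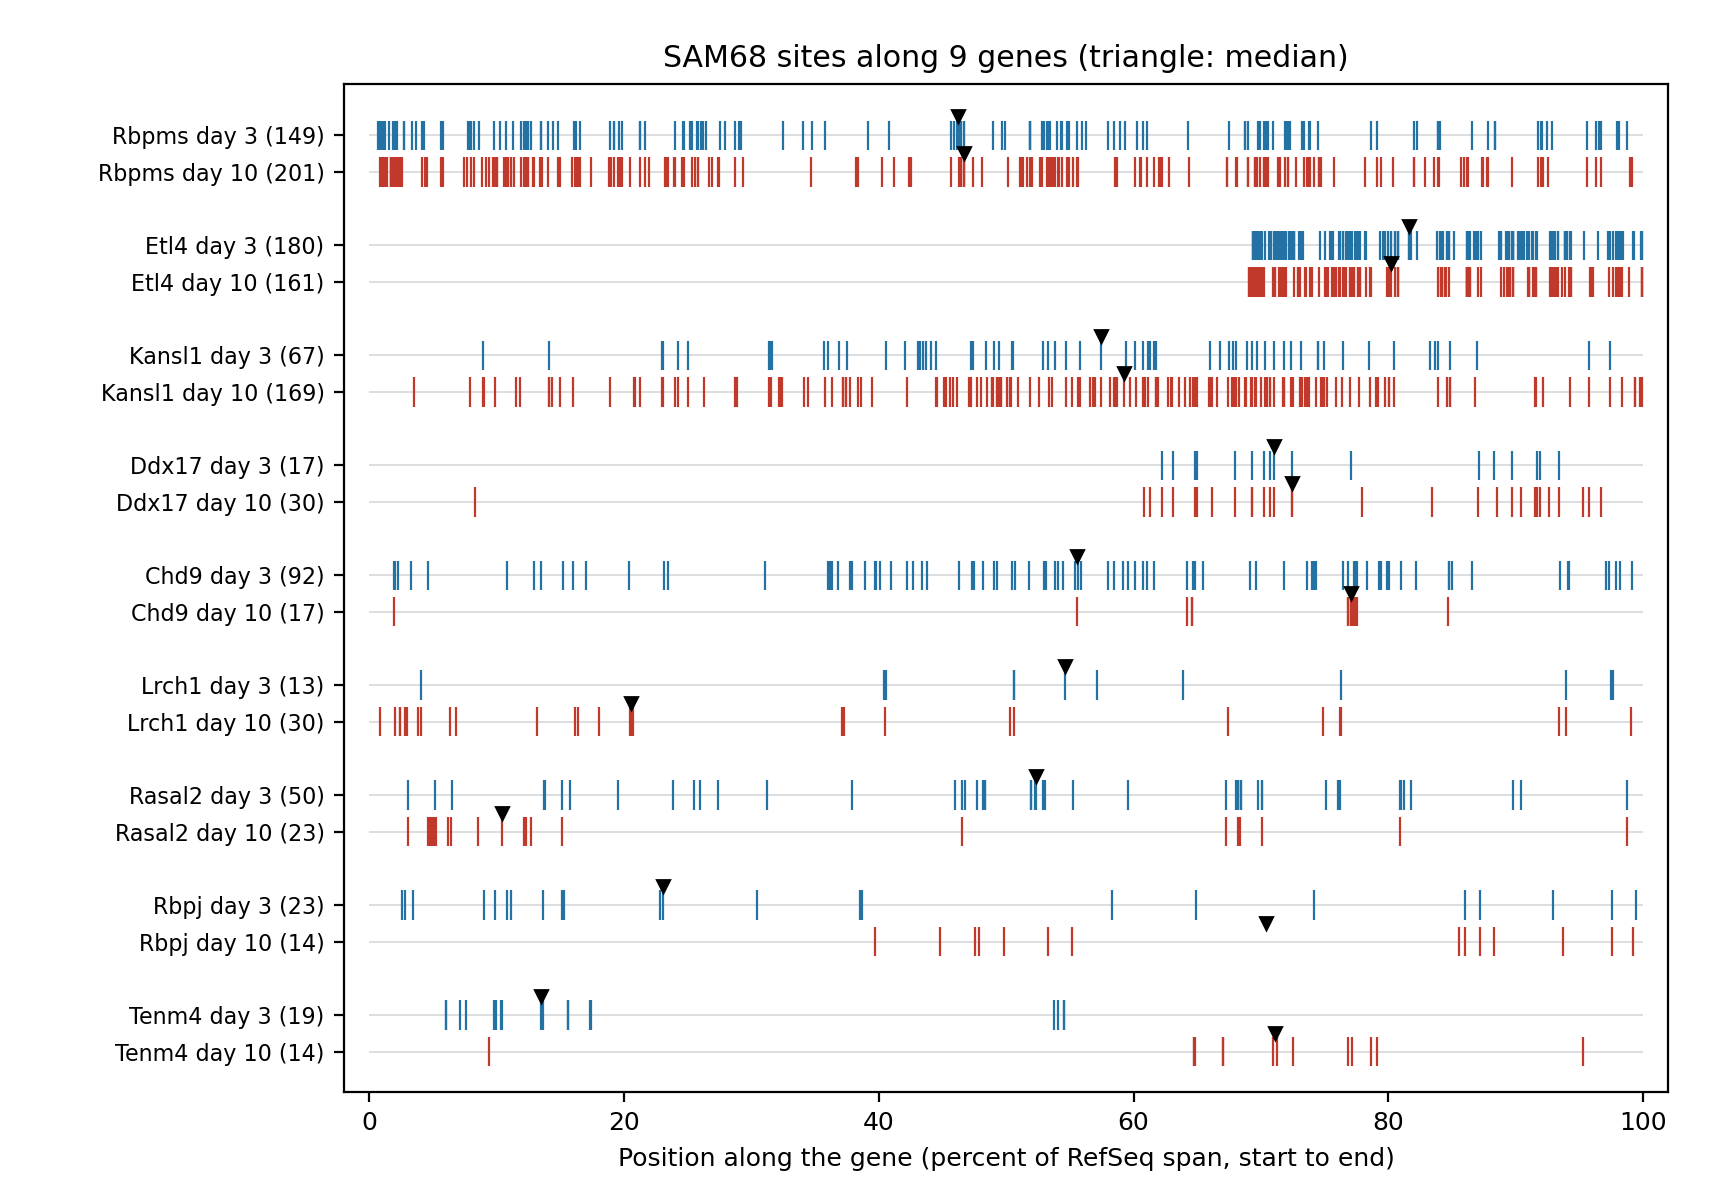
SAM68 sites along 9 genes from start to end (x axis, percent of the RefSeq span), with a line per site for day 3 (blue) and day 10 (red), the number of sites in parentheses and a triangle at the median. The 4 genes at the top, Rbpms, Etl4, Kansl1 and Ddx17, have medians within 2 points of each other on the 2 days, and in Tenm4 at the bottom the median lies at 13.4% on day 3 and 71.1% on day 10.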

How the data were processed

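Values come from lists of binding sites, 1 per day, as the authors deposited them. Per the file headers, the authors gave each site a gene and dropped sites that fell in overlapping genes. The score column of the deposited lists is 0 for every site and was not used. Among the tools in the submitters' processing notes are STAR 2.7.11a and UMI-tools 1.1.6, and the mouse build named there is GRCm38.p5. How sites were called, how libraries were combined and how deep they were is not given in the sources used here. No floor for a gene without sites can be given, since only called sites are listed.

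Sites were counted per Ensembl ID without its version. Symbols came from RefSeq gene spans of GRCm38.p6, matched by position because that table has no Ensembl IDs, where a span held at least 80% of the sites of an ID, and 7484 of 7949 IDs (94.2%) were named, 3576 of them among the 3680 described. Ratios of shares have exact conditional (Clopper-Pearson) 95% intervals, and log2 ratios add 1 site scaled by list length. Calls were checked on simulated data. Python 3.11.15, NumPy 2.4.6, pandas 2.3.3, SciPy 1.17.1 and matplotlib 3.10.9 were used.

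The members and the 18 gene lists were chosen with earlier results of these data known. Genes named are the 12 gained with the largest lower limit, the 12 lost with the smallest upper limit, the 10 kept with most sites, the 5 non-coding RNAs with most sites per day, and from each list up to 4 with most sites and every gained or lost gene with at least 20. For position they are the 6 at each end of the curve difference and of the share of day 3 sites at a day 10 place, with ties. Some genes that these rules name are not reported here. A gene outside the rule is named where a list's defining markers or its lost and gained genes are given. Alternatives changed the fold, the interval, the minimum of sites, the scaling, the pseudocount, the overlap and the gene class.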

Additional observations from a re-analysis of the deposited data

How the results depend on the processing

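Calls by fold alone, with no interval, gave 1076 gained and 907 lost genes. Scaling by the median ratio of genes with at least 10 sites in both lists gave 627 gained and 320 lost, and scaling without the 20 genes with most sites shifted log2 ratios by 0.07. With at least 20 sites per gene 198 were lost and 699 kept. The kept class held 915 genes at a limit of 1.5-fold and 2602 at 4-fold. The share of sites at the same place was 11.9% of day 3 and 4.53% of day 10 sites at identical positions, 28.1% and 11.2% within 10 nt, and 33.2% and 13.8% within 50 nt. Of 50 alternatives that changed the site minimum behind the medians of the lists and of all genes, 45 kept the sign and 5 did not, and for axon guidance the median was -0.044 with sites in both lists. The shift of the median site was -0.15 kb in distance. No paired analysis was possible because each day has a single list without values per library. Depth limits what can be called, since a gene absent from day 3 needs 12 sites on day 10.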
